A study of Mus musculus with 8 samples.

Results

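The interferon-inducible GTPases described here are 10 mouse genes, 6 guanylate-binding proteins (Gbp2, Gbp3, Gbp5, Gbp6, Gbp7 and Gbp9) and 4 immunity-related GTPases (Irgm1, Irgm2, Igtp and Iigp1). They were chosen by name, with earlier results of these data known, out of 20284 genes that an array probe names through a RefSeq accession. All 10 were on the array, by 13 probes, and all 10 were among the 13615 genes tested. RNA came from mouse spleen natural killer (NK) cells, enriched magnetically and then sorted by a ChAT-eGFP reporter, a fluorescent protein that marks cells expressing choline acetyltransferase. The 4 ChAT_positive pools had reporter signal and the 4 ChAT_negative pools had none, and each pool combined cells of 2 to 4 mice. Both groups carry the reporter and had no stated treatment, and the sources used here give no strain, age or sex. Whether pools shared mice is not stated, so each p-value describes spread among these pools, part of which may be technical.

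Interferon-inducible GTPases are made in response to interferon gamma and, to a lesser degree, type I interferon, through promoter elements called gamma-activated sites (GAS) and interferon-stimulated response elements (ISRE). Guanylate-binding proteins are large GTPases that coat bacteria and the vacuoles of intracellular parasites, help to break them open and feed inflammasome activation. Among the immunity-related GTPases, Irgm1, Irgm2 and Igtp (also called Irgm3) are regulators that protect the cell's own membranes, and Iigp1 is an effector that loads onto parasite vacuoles. NK cells are themselves a main source of interferon gamma and also respond to it.

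The promoter stretches below are shown because they hold letters that match the ISRE, the GAS or both, the element types named above. Promoters of 7 of the 10 genes were in the RefSeq table used (GRCm38.p6), and Gbp6, Gbp9 and Iigp1 were not. The 250 bases before each start were searched for the ISRE, spelled GAAA, any 2 bases and GAAA again (TTTC, any 2 bases and TTTC on the other strand), and for the GAS letters TTCNNNGAA, which read the same on both strands. Capitals mark every match within a stretch, and overlapping ISRE matches run together. Each stretch is given 5′ to 3′ on the gene's own strand.
Gbp2, chr3:142620569-142620648, plus strand: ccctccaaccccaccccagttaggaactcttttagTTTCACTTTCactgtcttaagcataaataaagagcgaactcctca
Gbp3, chr3:142559964-142560043, plus strand: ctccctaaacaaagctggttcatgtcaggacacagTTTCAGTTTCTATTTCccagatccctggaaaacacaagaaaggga
Gbp5, chr3:142496734-142496813, plus strand: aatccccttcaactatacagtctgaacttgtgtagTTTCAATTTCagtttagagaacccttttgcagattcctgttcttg
Gbp7, chr3:142530248-142530327, plus strand: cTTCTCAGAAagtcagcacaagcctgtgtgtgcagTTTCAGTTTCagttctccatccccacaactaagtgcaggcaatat
Irgm1, chr11:48871421-48871485, minus strand: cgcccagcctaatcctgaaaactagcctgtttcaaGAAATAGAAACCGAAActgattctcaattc
Irgm2, chr11:58214878-58214957, plus strand: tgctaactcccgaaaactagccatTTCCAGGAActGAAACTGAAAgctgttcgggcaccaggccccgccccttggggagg
Igtp, chr11:58199487-58199555, plus strand: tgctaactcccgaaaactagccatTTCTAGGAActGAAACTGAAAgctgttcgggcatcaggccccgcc

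All 7 genes had an ISRE match, against 2.98% of all 32851 promoter windows of that length, and 4 had a GAS match, against 7.02% of all windows. Gbp3 has a second listed start without either match. The ISRE match began 59 bases before the start in Gbp2, 53 in Gbp7, 165 in Gbp5, 64 in Irgm2 and 34 in Igtp. Gbp3 and Irgm1 each had 2 overlapping matches, the first beginning 45 and 30 bases before the start. Gbp5 and Gbp7 each had 2 GAS matches, of which the stretches show 1, in Gbp7. Irgm2 and Igtp had the GAS match just before the ISRE match, and their printed stretches were identical at 67 of the 69 bases that both show. A match describes letters in these windows and does not show that a factor bound there.

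In ChAT_positive NK cells, 5 of the 10 interferon-inducible GTPase genes rose by the test (Gbp6, Gbp7, Gbp9, Irgm1 and Gbp3) and 0 fell. The other 5 (Gbp2, Gbp5, Irgm2, Igtp and Iigp1) did not pass, and all 10 had higher means in ChAT_positive pools. The median log2 fold change of the 10 was 0.53, where the median over all 13615 genes tested was 0.03. Of all genes tested, 2.82% were called higher and 3.14% lower (limma, Benjamini-Hochberg adjusted p under 0.05), and 53.1% had a higher mean in ChAT_positive pools. At an unadjusted p under 0.05, 8 of the 10 were higher and 0 lower, against 12.9% and 11.9% of all genes. The groups did not overlap for 7 of the 10, all higher in ChAT_positive pools, against 9.37% of all genes with ChAT_positive pools above and 6.14% with them below. Because the 10 were chosen with earlier results of these data known, these shares are not an independent test of them. The count of 5 rested on few arrays. With ChAT_positive replicate 3 left out, or ChAT_negative replicate 4, it was 1. Leaving out ChAT_positive replicate 1, or ChAT_negative replicate 3, gave 2. The fits that left out ChAT_positive replicate 2, ChAT_positive replicate 4 or ChAT_negative replicate 2 gave 3, and leaving out both arrays numbered 3 gave 0. With no filter on dim probes Gbp6 alone was called, and median scaling ended the calls of Irgm1 and Gbp3.

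The 8 arrays had between 50.2% and 63.2% of spots well above background and 0 saturated spots. The ChAT_positive arrays shared 1 slide and 1 scan and the ChAT_negative arrays another, so neither slide nor scan can be told apart from the reporter. Both arrays numbered 3 had low spike-in signal, the lowest of the group for 7 of 10 spike-in probes in ChAT_positive and for 10 of 10 in ChAT_negative pools. Some spike-in probes were also higher in ChAT_positive arrays, the direction of the GTPase rise. On the log2 scale used below, E1A_r60_a135 gave 2.63, 3.12, 1.02 and 2.74 against 1.22, 1.64, -1.15 and 1.46 in ChAT_negative arrays, by replicate. E1A_r60_1, a brighter spike-in probe, differed less, at 5.71, 6.11, 5.64 and 5.60 against 5.96, 5.93, 5.07 and 5.82. The part of this spike-in difference in the GTPase result was not tested. Chat itself was 2.15-fold higher in ChAT_positive pools (limma adjusted p = 0.0201), the direction of the sort, and its probe was well above background in the ChAT_negative pools too. NK markers were present in both groups: Ncr1, an activating receptor, and Klrb1c, which encodes NK1.1, were well above background on all 8 arrays, though Klrb1c was 3.03-fold lower in ChAT_positive pools (limma adjusted p = 0.00104).

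**Figure D1:**
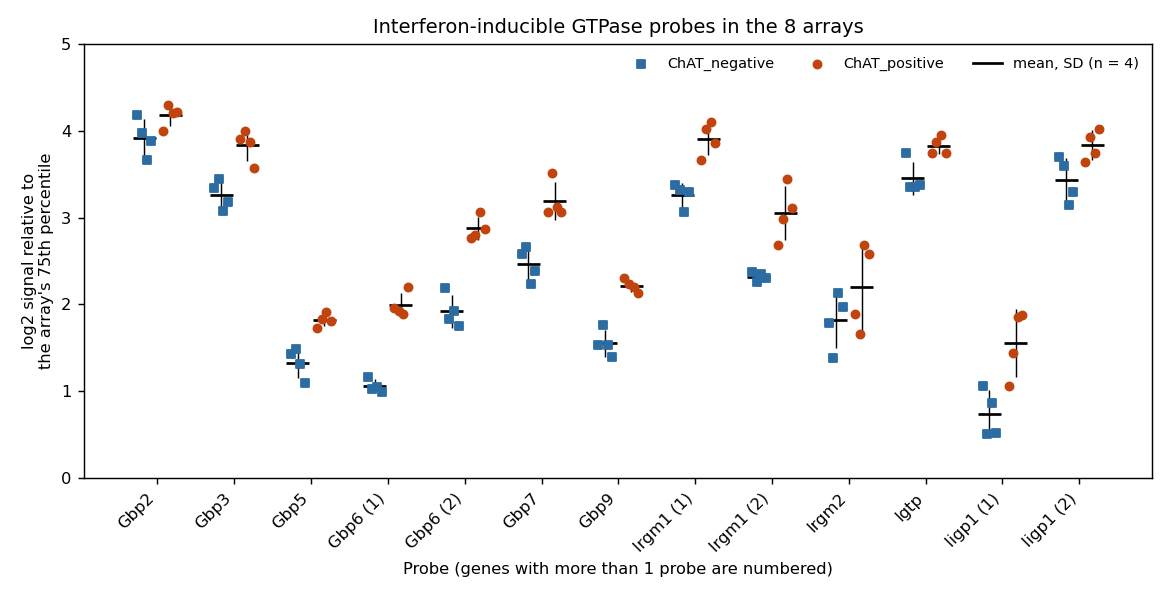
Log2 signal relative to the array's 75th percentile (vertical axis) for each of the 13 probes (horizontal axis), with squares for the 4 ChAT_negative and circles for the 4 ChAT_positive arrays, and black lines for the group mean and SD. The circles lie above the squares without overlap for both Gbp6 probes, both Irgm1 probes and the Gbp3, Gbp5, Gbp7, Gbp9 and Igtp probes, and the groups overlap for Gbp2, Irgm2 and both Iigp1 probes.

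Below, a log2 signal is log2 of the scanner's processed intensity minus the array's 75th percentile, so 0 is a signal at that percentile. Every one of the 13 probes was well above background on all 8 arrays. Levels of different probes are not compared, since probes differ in brightness for the same amount of RNA.

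Gbp6, a guanylate-binding protein of the cluster that also holds Gbp9, had the largest difference of the 10. Its brighter probe had a log2 signal of 2.77, 2.80, 3.06 and 2.87 in ChAT_positive replicates 1 to 4 and of 2.19, 1.83, 1.92 and 1.75 in ChAT_negative replicates 1 to 4. The lowest ChAT_positive array stood 0.58 above the highest ChAT_negative array, ChAT_negative replicate 1. The means were 2.88 ± 0.13 and 1.92 ± 0.19 (SD, n = 4 each), a difference of 0.95 log2 units (SE 0.13, adjusted p = 0.00875 by limma), which is 1.93-fold (95% interval 1.57 to 2.38). The other Gbp6 probe gave 1.96, 1.92, 1.89 and 2.20 against 1.17, 1.03, 1.05 and 0.99, again without overlap, and a log2 fold change of 0.93 (limma adjusted p = 0.0128 over all probes). Gbp6 was called whichever single array was left out (adjusted p = 0.0099 to 0.0339), and it was the 1 gene of the 10 for which that held. Without both arrays numbered 3 its adjusted p was 0.08.

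Gbp7, which is recruited to pathogen vacuoles, had log2 signals of 3.06, 3.51, 3.12 and 3.07 in ChAT_positive and 2.58, 2.66, 2.23 and 2.38 in ChAT_negative pools. ChAT_positive replicate 2 stood above the other 3 of its group, which lay within 0.06 of each other, and the groups did not overlap. The difference was 0.73 log2 units (SE 0.15, adjusted p = 0.0304 by limma), which is 1.66-fold (95% interval 1.305 to 2.10). The call held in 3 of 8 fits with 1 array left out, those without ChAT_positive replicate 2, ChAT_negative replicate 1 and ChAT_negative replicate 2 (adjusted p up to 0.0894).

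Gbp9 had the tightest ChAT_positive group together with Gbp5, at 2.30, 2.23, 2.20 and 2.13, against 1.53, 1.76, 1.53 and 1.39 in ChAT_negative pools. All ChAT_positive arrays were higher than all ChAT_negative arrays, by at least 0.37. The difference was 0.66 log2 units (SE 0.12, adjusted p = 0.0194 by limma), which is 1.59-fold (95% interval 1.32 to 1.90). The call held in 5 of 8 fits with 1 array left out (adjusted p = 0.0227 to 0.0627) and was lost when ChAT_positive replicate 1, ChAT_positive replicate 3 or ChAT_negative replicate 4 was dropped.

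Gbp3, encoded in the same chromosome 3 cluster as Gbp2, Gbp5 and Gbp7, had log2 signals of 3.91, 4.00, 3.87 and 3.57 against 3.34, 3.45, 3.08 and 3.18. The lowest ChAT_positive array, replicate 4, stood 0.11 above the highest ChAT_negative array. The difference was 0.58 log2 units (SE 0.14, adjusted p = 0.0464 by limma), which is 1.49-fold (95% interval 1.20 to 1.85). This call held in 1 of 8 fits with 1 array left out, the fit without ChAT_positive replicate 4 (adjusted p = 0.0439), and reached 0.121 in the others. In the fit over all probes the same probe had an adjusted p of 0.0699.

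Gbp5, which promotes assembly of the NLRP3 inflammasome, and Gbp2, which coats parasite vacuoles, did not pass the test. Gbp5 had log2 signals of 1.73, 1.83, 1.91 and 1.81 against 1.43, 1.49, 1.31 and 1.09, without overlap. Its log2 fold change of 0.49 (SE 0.12, 95% interval 0.21 to 0.77) had a limma adjusted p of 0.0506, just past the threshold, and was called under 8 of 11 other settings with all arrays. Gbp2 had log2 signals of 4.0, 4.3, 4.2 and 4.22 against 4.18, 3.97, 3.66 and 3.88. There ChAT_negative replicate 1 lay above ChAT_positive replicate 1, and the log2 fold change was 0.26 (95% interval -0.06 to 0.58, limma adjusted p = 0.292).

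Irgm1, the regulator whose loss leaves mice open to mycobacterial infection, was the 1 immunity-related GTPase of the 4 that rose. Its brighter probe had log2 signals of 3.66, 4.02, 4.10 and 3.86 in ChAT_positive and 3.38, 3.32, 3.06 and 3.29 in ChAT_negative pools. The groups did not overlap, and ChAT_positive replicate 1 lay closest to the ChAT_negative arrays. The difference was 0.65 log2 units (SE 0.14, adjusted p = 0.0304 by limma), which is 1.57-fold (95% interval 1.27 to 1.94). The other Irgm1 probe gave 2.69, 2.98, 3.44 and 3.11 against 2.37, 2.26, 2.35 and 2.30, a log2 fold change of 0.73. In the fit over all probes the brighter probe had an adjusted p of 0.0497 and the other one of 0.0538, on either side of the threshold. With 1 array left out the gene's call held in 2 of 8 fits, those that dropped either array numbered 1 (adjusted p up to 0.0879 in the rest).

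Igtp and Irgm2, the other two regulators, were not called. Igtp had log2 signals of 3.75, 3.87, 3.95 and 3.75 against 3.74, 3.35, 3.35 and 3.37. All ChAT_positive arrays lay above all ChAT_negative arrays, but by 0.01 only, since ChAT_negative replicate 1 stood at the level of the ChAT_positive group. The log2 fold change was 0.38 (95% interval 0.09 to 0.67, limma adjusted p = 0.116), with an adjusted p of 0.0587 without ChAT_negative replicate 1. Irgm2 had log2 signals of 1.89, 1.66, 2.68 and 2.58 against 1.79, 1.38, 2.13 and 1.97. In both groups its replicates 3 and 4 were higher than its replicates 1 and 2, and the groups overlapped. Its log2 fold change was 0.38 (95% interval -0.21 to 0.98, limma adjusted p = 0.403), with the largest SE of the 10, 0.26. At each replicate number the ChAT_positive array had the higher Irgm2 signal. With the replicate number as a block, limma's adjusted p for Irgm2 was 0.0922, though the labels do not pair the arrays.

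Iigp1, the effector GTPase, had probes that differed in size of change. The brighter probe had log2 signals of 3.64, 3.93, 3.75 and 4.02 against 3.70, 3.59, 3.15 and 3.29, with ChAT_negative replicate 1 above ChAT_positive replicate 1. Its log2 fold change was 0.40 (95% interval 0.05 to 0.76, limma adjusted p = 0.156 over genes). The dimmer probe gave 1.06, 1.44, 1.86 and 1.88 against 1.06, 0.51, 0.87 and 0.52, a log2 fold change of 0.82 (95% interval 0.31 to 1.33, limma adjusted p = 0.0807 over all probes). Both probes were designed to the same transcript, and neither was called.

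Of the 13 probes, 5 were called higher and 0 lower in the fit over all 32097 probes, where 1.46% were called higher and 1.64% lower. These were both Gbp6 probes and the Gbp7, Gbp9 and brighter Irgm1 probes. The two-sided exact permutation test over samples gave p = 0.0286 for each of the 9 probes whose groups did not overlap, the smallest that 4 against 4 arrays allow, and for Gbp2 and both Iigp1 probes it gave p = 0.0571 and for Irgm2 p = 0.257. Without both arrays numbered 3, 0 of the 13 probes were called.

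**Figure D2:**
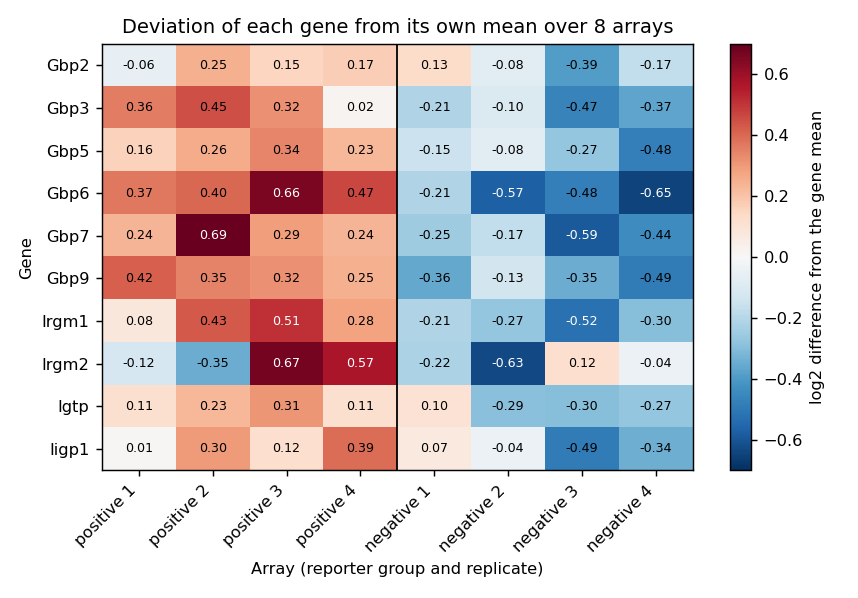
Each gene's log2 deviation from its own mean over the 8 arrays, with genes in rows and arrays in columns, ChAT_positive replicates left of the vertical line and ChAT_negative replicates right of it. Deviations run from -0.65 (Gbp6 in ChAT_negative replicate 4) to 0.69 (Gbp7 in ChAT_positive replicate 2), and the left columns are above the gene mean except for Gbp2 and Irgm2 in replicate 1 and Irgm2 in replicate 2.

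Some arrays were the highest or the lowest of their group for several of the 10 genes. How often these arrays took such places over all genes was not counted. ChAT_negative replicate 3 was the lowest of its group for 6 of the 10 genes and ChAT_negative replicate 1 the highest for 5. Among ChAT_positive arrays, replicate 3 was the highest for 5 and replicate 1 the lowest for 6. The median centred profile of the 10 was 0.14, 0.32, 0.32 and 0.24 in ChAT_positive replicates 1 to 4 and -0.21, -0.15, -0.43 and -0.36 in ChAT_negative replicates 1 to 4. Distance from this profile was taken as the root mean square over the 8 arrays. Among the 10 it was smallest for Gbp5 at 0.084 and Irgm1 at 0.10, and largest for Irgm2 at 0.418. The median over all 13615 genes was 0.363. Each of the 10 helps to set this profile, which also holds the group difference, so members are partly bound to lie near it. The 5 named genes nearest to the profile outside the family were Phf6, a chromatin-associated zinc finger protein, Dnajc2, a ribosome-associated chaperone, Ppip5k2, an inositol pyrophosphate kinase, Sp140, a nuclear body protein, and Ppargc1b, a transcriptional coactivator, at distances of 0.039 to 0.075. A total of 10 genes outside the 10 lay nearer to the profile than Gbp5 did.

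**Figure D3:**
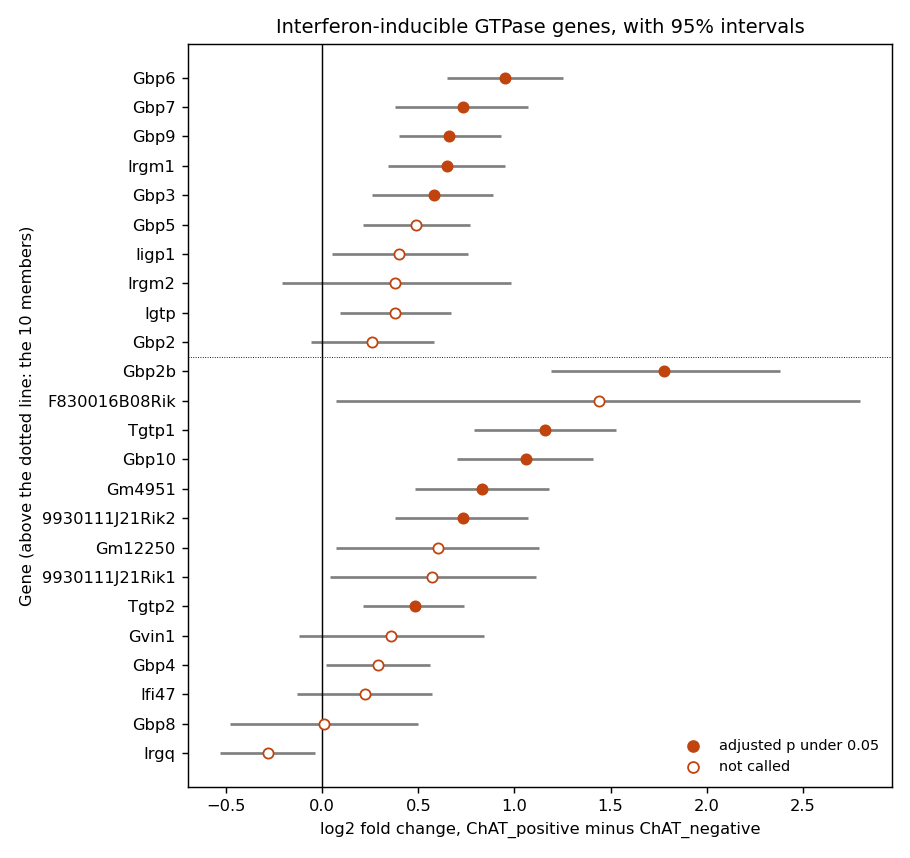
Log2 fold change, ChAT_positive minus ChAT_negative, with its 95% interval, filled where limma's adjusted p was under 0.05. The 10 genes lie above the dotted line, and 14 other genes listed as interferon-inducible GTPases lie below it. Of the 24 points, 11 are filled, all to the right of 0, from 0.48 (Tgtp2) to 1.78 (Gbp2b), and Irgq lies lowest at -0.28.

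Of 14 other tested genes listed as interferon-inducible GTPases, 6 rose and 0 fell. At an unadjusted p under 0.05, 1 was lower, Irgq (log2 fold change -0.28, limma adjusted p = 0.144), without overlap of the groups. Whether Irgq is induced by interferon was not checked here. The median log2 fold change of the 14 was 0.59. Gbp2b, the mouse counterpart of GBP1, had log2 signals of -3.06, -3.00, -3.04 and -3.16 against -4.37, -4.54, -4.78 and -5.70. It rose by 1.78 (SE 0.26, limma adjusted p = 0.00996), from signal near background, and 3 of 4 ChAT_negative arrays had it well above background. Gbp10 rose by 1.06 and the effector GTPase Tgtp1 by 1.16 (SE 0.16 each, limma adjusted p = 0.0102 and 0.00875). Tgtp2, its close paralog, rose by 0.48, Gm4951 by 0.83 and 9930111J21Rik2 by 0.73. Gbp10 is a close paralog of Gbp6, and Tgtp1 of Tgtp2, so their probes may share signal. The effector gene Gm12250 (also called Irgb10) had a log2 fold change of 0.60 (limma adjusted p = 0.156), Gbp4 one of 0.29 (0.172) and Gbp8 one of 0.01 (0.978). The count of 6 fell to 3 with no filter on dim probes. It was also 3 when any of ChAT_positive replicates 1, 3 and 4 or ChAT_negative replicates 2 and 4 was dropped, and 0 when both arrays numbered 3 were.

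Of 8 tested interferon ligand and receptor genes 1 rose, Ifngr2, the signalling chain of the interferon gamma receptor. It had log2 signals of 0.69, 0.27, 0.96 and 0.88 against -0.11, -0.56, -0.48 and -0.32, and rose by 1.07 (SE 0.18, limma adjusted p = 0.0154). The list had 1 call whichever single array was left out and 0 without both arrays numbered 3. Ifngr1, the ligand-binding chain, had a log2 fold change of -0.34 (limma adjusted p = 0.294), and Ifng, the cytokine itself, one of -0.20 (0.508), and neither was called. The list's median was -0.12, and 0.10 under median scaling.

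Among genes of interferon signal transduction, Irf1, a transcription factor that drives GBP genes, had a log2 fold change of 0.39 (limma adjusted p = 0.10), and Jak2, a kinase of the interferon gamma receptor, one of 0.51 (0.12).

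**Figure D4:**
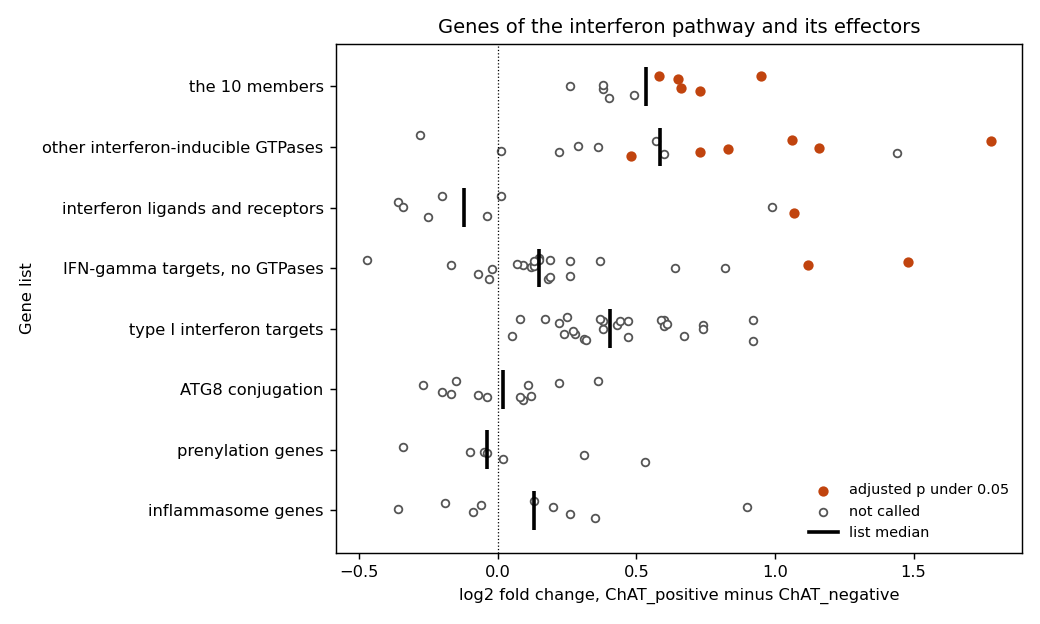
Log2 fold change of each tested gene (horizontal axis) by gene list (vertical axis), filled where limma's adjusted p was under 0.05, with a black bar at the list median. The bars of the 10 genes (0.53), the other GTPases (0.59) and the type I interferon targets (0.40) stand right of the other 5 plotted lists, and the ATG8 conjugation and prenylation lists centre near 0, at 0.02 and -0.04.

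Of 22 tested interferon gamma targets outside the GTPase families, 2 rose and 0 fell, and the median was 0.15. Ubd, which encodes the ubiquitin-like protein FAT10, had log2 signals of 2.78, 2.70, 2.63 and 2.65 against 1.40, 1.66, 1.08 and 0.72 and rose by 1.48 (SE 0.19, limma adjusted p = 0.00662). Cxcl9, a chemokine that draws CXCR3-bearing lymphocytes, had 3.76, 3.21, 3.61 and 3.67 against 3.15, 2.48, 2.18 and 1.96 and rose by 1.12 (SE 0.25, limma adjusted p = 0.0379). The immunoproteasome gene Psmb9 had a log2 fold change of 0.12 (limma adjusted p = 0.656) and the peptide transporter gene Tap1 one of 0.15 (0.598). The number called was 1 with no filter on dim probes and in each of the 6 fits that dropped ChAT_positive replicate 1, 3, 4 or ChAT_negative replicate 2, 3, 4, and 0 when both arrays numbered 3 were dropped.

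Type I interferon targets had higher means in ChAT_positive pools for 26 of 26 tested genes, and limma called 0 of them (at unadjusted p under 0.05, 12 were higher and 0 lower). Their median was 0.40. The smallest adjusted p values were those of Oas2, a sensor of double-stranded RNA (log2 fold change 0.92, limma adjusted p = 0.062), and Ifit2, which restricts translation of viral RNA (0.92, 0.0708). The number called was 1 under median scaling, 2 under quantile normalization or normexp, 4 without ChAT_negative replicate 1, 5 with a trended and robust variance, 6 with array weights and 10 with the replicate number as a block. Whether the GTPases and the type I targets differ in size of change was not tested.

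Genes that the GTPases work with showed 0 calls by limma. Of 12 tested genes of ATG8 conjugation, the autophagy-related machinery that guides GTPases onto vacuoles, 1 was higher at an unadjusted p under 0.05, Atg10 (log2 fold change 0.36, limma adjusted p = 0.142). Atg5 had a log2 fold change of 0.22 (limma adjusted p = 0.293). Of 7 genes of prenylation, the lipid modification that anchors some guanylate-binding proteins to membranes, 1 was higher at an unadjusted p under 0.05, Fntb (0.53, limma adjusted p = 0.168). Ggps1, which makes the lipid, had -0.34 (0.214). Of 9 inflammasome genes 2 were higher at an unadjusted p under 0.05. Nek7, an NLRP3 partner, had a log2 fold change of 0.35 (limma adjusted p = 0.103) and Nlrc4, a flagellin-pathway sensor, one of 0.90 (0.154). Without ChAT_negative replicate 4, 1 inflammasome gene was called higher.

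Markers of other cells also differed between the pools. In RNA of pooled cells, fewer cells of a type cannot be told apart from less RNA per cell. The summed level of a marker list is the sum of its tested genes' linear signals, each in units of the array's 75th percentile. Of 12 B cell markers 6 rose and 0 fell, with a summed level of 103.5 to 134.4 in ChAT_positive and 69.8 to 88.41 in ChAT_negative pools, and all 12 were well above background on all 8 arrays. Of 12 type 17 and type 2 lymphoid markers 9 rose and 0 fell, at 28.9 to 36.48 against 16.4 to 18.72. Of 12 NK markers 3 fell (Klrb1c, Klrk1 and Prf1) and 0 rose, at 138 to 210.6 against 214.3 to 257.8. Of 7 tested basophil and mast cell markers 5 fell and 0 rose, at 0.891 to 3.794 against 9.115 to 43.34, and 0 of 4 ChAT_positive arrays had Cd200r3 well above background. The T cell list (20.59 to 34.64 against 21.61 to 31.76) and the monocyte and macrophage list (5.424 to 8.16 against 6.06 to 9.403) had 0 calls by limma. At unadjusted p under 0.05, 1 T cell marker was higher and 2 lower, and 2 monocyte and macrophage markers were higher and 1 lower. At that threshold 9 of the 12 NK markers were lower and 0 higher, and 8 of the 12 B cell markers were higher and 0 lower. The median log2 fold change was -0.55 for the NK list and 0.76 for the B cell list. Of 11 neutrophil markers 3 fell (32.64 to 59.57 against 49.91 to 85.36), of 10 dendritic markers 3 (90.98 to 120.1 against 74.98 to 106.6), of 7 erythroid markers 2 (22.14 to 24.43 against 30.32 to 40.92) and of 9 platelet markers 2 (3.481 to 8.382 against 7.935 to 23.42). The dendritic sum went the other way from its 3 calls, with a median of 110.3 in ChAT_positive and 93.92 in ChAT_negative pools. For dendritic markers, 2 were higher and 3 lower at unadjusted p under 0.05. With 1 array left out, between 4 and 5 B cell markers and between 8 and 9 type 17 and type 2 lymphoid markers were called higher. The basophil and mast cell count ran from 2, without ChAT_negative replicate 4, to 7, without ChAT_negative replicate 2, and was 3 without ChAT_positive replicate 3 or ChAT_negative replicate 3. The NK count was 5 without ChAT_positive replicate 2 and 2 without any other single array. The neutrophil count was 0 with no filter on dim probes or when ChAT_negative replicate 3 or 4 was dropped, and 1 when ChAT_positive replicate 1 or 4 was. The platelet count was 4 without ChAT_negative replicate 2 and 1 when ChAT_positive replicate 1 or 3 or ChAT_negative replicate 3 or 4 was dropped. The erythroid count was 1 when ChAT_positive replicate 3 or ChAT_negative replicate 2 or 4 was dropped. Without both arrays numbered 3 the calls were 1 B cell, 6 type 17 and type 2 lymphoid, 1 NK, 1 basophil and mast cell and 1 erythroid marker, and 0 neutrophil, dendritic or platelet markers. The part of these marker differences in the GTPase result was not tested.

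**Figure D5:**
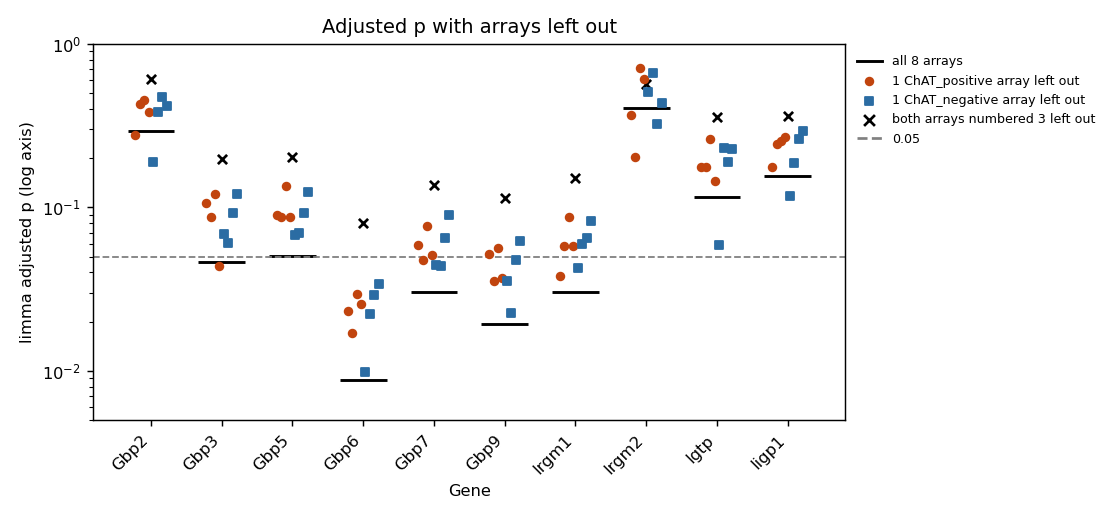
Limma adjusted p (log axis) for each of the 10 genes with all 8 arrays (black bar), with 1 array left out (circles for ChAT_positive, squares for ChAT_negative arrays) and with both arrays numbered 3 left out (cross), against the threshold of 0.05 (dashed line). All 8 single-array points of Gbp6 lie under the line, from 0.0099 to 0.0339, while Gbp2, Gbp5, Irgm2, Igtp and Iigp1 have none under it and every cross lies above it.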

How the data were processed

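The members and gene lists were chosen with earlier results of these data known. The deposited spot intensities came from Agilent Feature Extraction 11.5.1.1, per the file headers, and are not scaled between arrays. Cy3 labelling followed amplification of 100 ng total RNA, per the labels' protocols. The authors' deposited table of log2 values (31942 probes, column medians -0.72 to -0.63) was compared with the values used here. The median difference of an array was at most 0.0065 in size, so the deposited table is scaled alike and not centred per gene.

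Spots of a probe were averaged without controls. Of the spot values 1344 were flagged as outliers and left out, except where all spots of a probe on an array were flagged. Those 51 probe values were kept. Of 55681 probes 26762 were named through RefSeq accessions (GRCm38.p6). Values are log2 intensity minus the array's 75th percentile. A probe was kept when 4 of 8 arrays had it well above background (32097), and a gene's brightest probe stood for it (13615). Fold changes, ChAT_positive minus ChAT_negative, came from two-sided limma tests (version 3.58.1, R 4.3.3, functions lmFit and eBayes). Calls needed a Benjamini-Hochberg adjusted p under 0.05 over all genes or all probes. The fit was tested on simulated data. The named genes are the 10 members, Chat, the called genes of each list or else its smallest adjusted p values, and the 5 genes of most like pattern. A few others (Gm12250, Gbp4, Gbp8, Irgq, Ifngr1, Ifng, Irf1, Jak2, Psmb9, Tap1, Ncr1 and the named markers) were added after their values were seen. Alternatives covered scaling, normexp on median spot signal, dim-probe filters, averaging of probes, a trended robust variance, array weights, a replicate block, the deposited table and arrays left out. A list of interferon signal transducers is not reported here, apart from Irf1 and Jak2. The number of arrays limits the precision.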

Additional observations from a re-analysis of the deposited data

Results flagged for a closer look

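Each of the 26 groups of 4 arrays (13 probes in 2 reporter groups) was checked for an array whose gap to its nearest neighbour took more of the group's range than Dixon's 95% critical value, which chance alone gives in about 1 of 20 groups. There were 2 such groups. For Gbp7, ChAT_positive replicate 2 stood above the other 3 ChAT_positive arrays, with a gap of 0.876 of the range. For Igtp, ChAT_negative replicate 1 stood above the other 3 ChAT_negative arrays, with a gap of 0.935 of the range.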

How the results depend on the processing

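All 10 genes kept a higher mean in ChAT_positive pools under each of the 20 alternatives. Of 200 gene and alternative pairs, 158 stayed on the same side of the threshold, 33 lost a call and 9 gained one. With all arrays, the number of members called higher was 1 with dim probes unfiltered, 3 with arrays scaled by their median, and 4 to 7 under the other alternatives, which include normexp and quantile normalization. With 1 array left out it was 1 to 4 of the genes and 1 to 3 of the probes. Member probes called higher numbered 2 with probes required above background on 1 of 8 arrays, 1 with no filter and 9 with a trended and robust variance. Over all genes, 384 were higher and 428 lower, against 212 and 119 under median scaling, which moved the median of all genes from 0.03 to 0.24. With no filter 98 and 125 were called, and with array weights 578 were higher. With 1 array left out, 95 to 307 were higher and 116 to 425 lower. Without both arrays numbered 3, an alternative chosen after seeing the data, 0 member genes, 0 member probes, 24 higher and 36 lower genes were called. With the replicate number as a block, 6 member genes, 7 member probes, 1001 higher and 1337 lower genes were called. The labels do not pair the arrays, and same-numbered arrays had correlated deviations over genes (r = 0.54, 0.66 and 0.52) except those numbered 4 (r = 0.03), so the number was not taken as a pairing. ChAT_positive replicate 4 correlated best with ChAT_negative replicate 3. Signal over background did not limit the members' values, since their probes were above it on every array.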

Other observations

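The same promoter search was run on the other gene lists with windows in the RefSeq table. An ISRE match stood in the 250 bases before a start in 4 of 8 other interferon-inducible GTPase genes, in 9 of 20 type I interferon targets and in 1 of 15 interferon gamma targets outside the GTPase families. A GAS match stood in 3 of 8, 5 of 20 and 2 of 15 of these genes.

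Irgm2 and Igtp had promoter stretches that were identical at 67 of 69 bases, and their log2 signals had different orders in the ChAT_negative group, while ChAT_positive replicate 3 was the highest of its group for both (2.68 for Irgm2 and 3.95 for Igtp). The highest Irgm2 arrays of the ChAT_negative group were replicates 3 and 4, at 2.13 and 1.97, whereas the highest Igtp array was replicate 1, at 3.74. The other Igtp arrays of that group lay at 3.35, 3.35 and 3.37, so the Igtp order rested on replicate 1. Irgm2 ranked 8436 of 13615 genes in distance from the family's median profile, and Igtp ranked 199.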
